A study of Mus musculus with 8 samples.

Results

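Monocytes and macrophages were followed in inflamed mouse ears through 36 genes, chosen by name, of the 19126 genes in the table. They mark the identity of these cells, their recruitment from blood, their antibody and complement machinery, their scavenger receptors and the enzymes used to tell activation states apart. Monocytes are made in bone marrow and enter inflamed skin along chemokine gradients, where many mature into macrophages. Skin also holds resident macrophages of the dermis, which take up dead cells, antibody-coated particles and debris. In contact dermatitis monocytes arrive with neutrophils and T cells, and both monocytes and macrophages take part in the swelling and in its resolution.

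The 8 libraries came from left ears of C57BL/6 mice, an inbred strain, 6 to 8 weeks old at selection. All were sensitised on day 1 with 25 µL of 0.3% dinitrofluorobenzene (DNFB), a contact allergen, and on day 6 the left ear was painted with 10 µL at 0.25%. In the inhibitor group, 4 mice received 10 mg/kg MMP-9-IN-1, which blocks the secreted protease matrix metalloproteinase 9, into the peritoneum. In the vehicle group, 4 mice received its solvent of 10% DMSO, 40% PEG300 and 50% PBS. Ears were collected after 4 days of this regimen. Skin without DNFB was not analysed here. The labels number the mice 1 to 4 in each group without saying what they share. The libraries held 13863180 to 18512232 counted reads. A whole ear was sequenced, so fewer cells of a type and less RNA per cell cannot be told apart. Krt14, a keratin of basal epidermis, lay between 6972 and 11620 CPM (read counts brought to a common library size with TMM factors). Krt10, of the upper epidermis, had 28.9, 134, 438 and 413 CPM with the inhibitor, against 26.5, 102, 619.9 and 769 CPM with vehicle, lowest in mouse 1 of each group.

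No monocyte or macrophage gene passed the test between inhibitor and vehicle ears. All 36 had enough reads to be tested, and 0 reached an adjusted p of 0.05 in edgeR's quasi-likelihood test, as did 0% of the 15096 genes tested. At an unadjusted p under 0.05 there were 0 of the 36, beside 1.04% of all genes, and DESeq2, limma-voom and limma on TPM also called 0. In this fit the adjusted p was 0.999 for every gene below, so its fold changes are given with standard errors alone. On simulated counts for these 15096 genes, a 4-fold change was recovered in 74% of 50 genes and a 2-fold change in 10%. The simulated spread followed the trend over all genes, with no split between mice of a group. The 36 genes had a median SE of 0.59, against 0.259 over all genes, so these shares do not carry over to them. The log2 fold change of inhibitor over vehicle was above 0 for 24 genes (66.7%, beside 54.5% of all genes) and below 0 for 12. Their median was 0.33, against 0.026 over all genes tested. That lean rested on 1 library, since without inhibitor mouse 4 the estimate was below 0 for 21 of the 36 and the median was -0.15. In all 36 the ranges of the groups overlapped, while 1.19% of all genes tested had groups that did not.

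Comparisons within mice of like number also called 0 genes. With a block for mouse number, 23 of the 36 genes had a higher estimate (54.4% of all genes). The labels do not pair mice by number, and this block was chosen from likeness between libraries in these same data. Its unadjusted p-values are therefore descriptive only. In that fit 6 of the 36 had an unadjusted p under 0.05, beside 4.8% of all genes, and their adjusted p was 0.717 in edgeR. Of these, Cd163, Mrc1, C1qb, Aif1 and Ms4a6c had higher estimates with the inhibitor, with log2 fold changes of 0.83 (SE 0.26), 0.60 (SE 0.20), 0.63 (SE 0.23), 1.12 (SE 0.41) and 1.00 (SE 0.39) in that order, and Mertk had a lower one, at -0.38 (SE 0.13). Within mice 3 and 4 alone 30 of the 36 had a higher estimate (51.4% of all genes), and within mice 1 and 2 alone 19 of 35 (52.8%). At an unadjusted p under 0.05 stood Ccr2, Aif1 and Ms4a6c in mice 1 and 2 alone, 3 of 35 beside 16.9% of all genes, and Arg1 and Chil3 in mice 3 and 4 alone, 2 of 36 beside 3.65%. These names were taken after their values were seen.

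**Figure D1:**
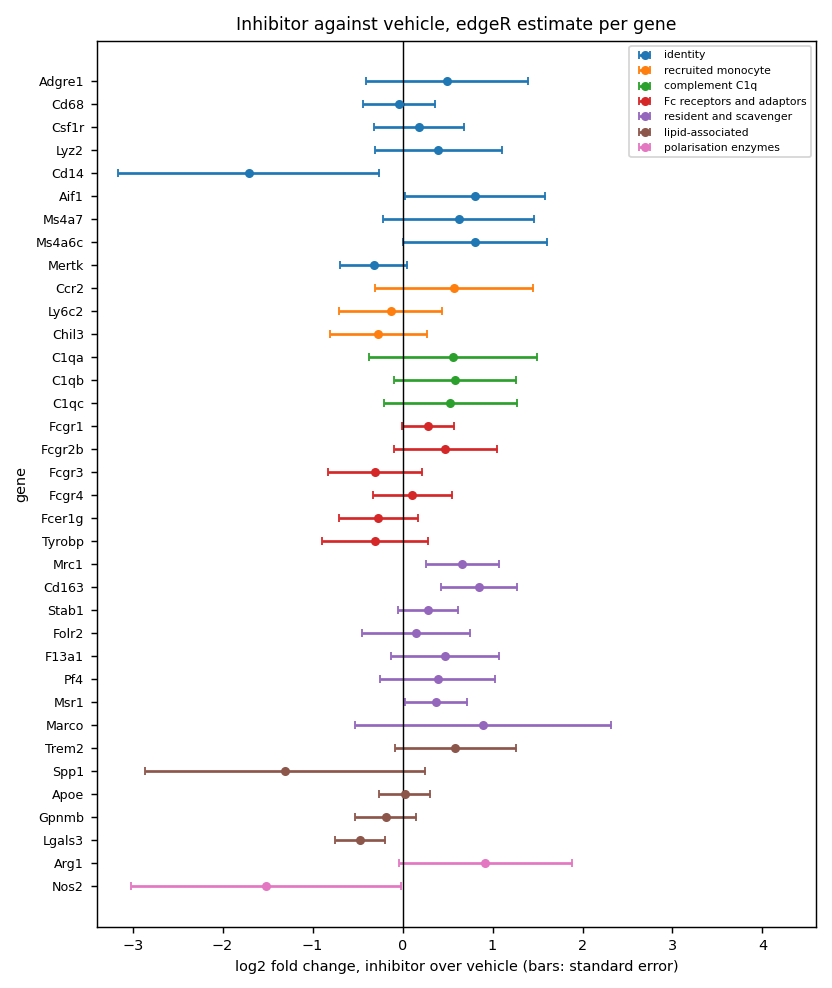
Log2 fold change of inhibitor over vehicle for each of the 36 genes (points, edgeR estimate; bars, standard error; colours, roles). The 8 resident and scavenger genes lie to the right of 0, and Cd14, Nos2 and Spp1, with estimates of -1.71, -1.52 and -1.31, have standard errors from 1.45 to 1.56.

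Mice of the same group differed widely in these genes. Inhibitor mouse 4 had the highest CPM of the 8 libraries in 21 of the 36 genes, and inhibitor mouse 1 the lowest in 22. Within the vehicle group, mice 3 and 4 both lay above mice 1 and 2 in 19 genes (52.8%, beside 40.7% of all genes). The reverse held for 12 genes (33.3%, beside 37.8% of all genes), and 5 were mixed. The 36 genes thus did not vary together. Adgre1, Aif1, Ms4a6c, Ccr2 and the C1q chains were low in vehicle mice 1 and 2, while Cd14, Spp1 and Nos2 were high there and in inhibitor mouse 2.

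**Figure D2:**
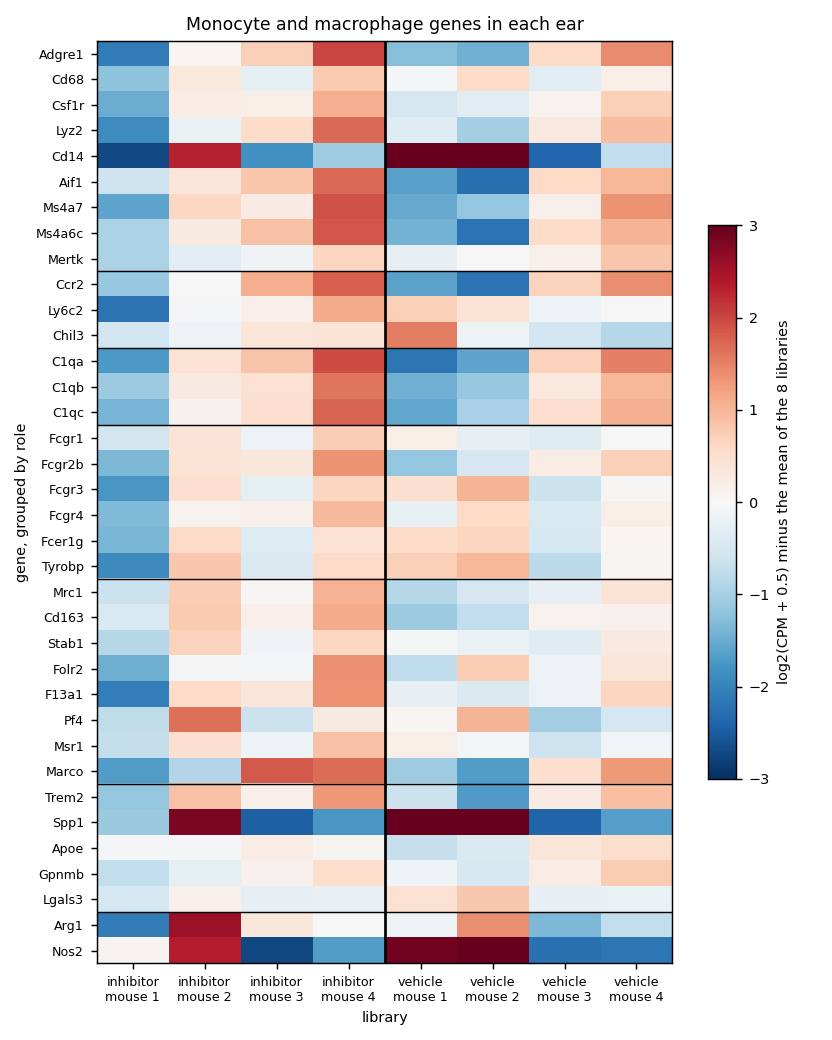
Each of the 36 genes (rows, grouped by role) in each of the 8 libraries (columns, inhibitor at left), as log2(CPM + 0.5) minus the mean of the gene over the 8 libraries, with colours that end at 3 units. Rows such as Adgre1 and C1qa run blue in vehicle mice 1 and 2, where Cd14, Spp1 and Nos2 run red, and the column of inhibitor mouse 1 is blue in most rows.

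Other cells of the ear varied along the same libraries. The 12 neutrophil markers summed to 3529, 23494, 3090.5 and 3787 TPM in inhibitor mice 1 to 4, against 31027, 35603, 4230.5 and 3537 TPM in vehicle mice 1 to 4. All 10 that were tested had a lower estimate with the inhibitor (45.5% of all genes), and 0 passed. Their median log2 fold change was -1.63 with mice 1 and 2 alone, but 0.23 with mice 3 and 4 alone. S100a8 and S100a9 made up most of the sum in every ear. Ly6g, the surface antigen that defines mouse neutrophils, had 4.80, 18.0, 1.07 and 1.23 CPM with the inhibitor, against 57.3, 52.2, 0.769 and 1.68 CPM with vehicle, and the calprotectin chain S100a9 had 399, 4159, 280.1 and 480.4 CPM with the inhibitor, against 5505, 8155, 403 and 439 CPM with vehicle. The 6 red blood cell genes summed to 220.1, 6037, 1082 and 1079 TPM in inhibitor mice 1 to 4, against 21907, 22507, 259 and 952 TPM in vehicle mice 1 to 4. Neutrophil and red blood cell sums were therefore highest in vehicle mice 1 and 2, followed by inhibitor mouse 2. T and natural killer cell genes were low in mice 1 and 2 of both groups, with sums over 7 genes of 9.52, 22.1, 86.7 and 176 TPM in inhibitor mice 1 to 4, against 4.74, 6.80, 99.3 and 200.1 TPM in vehicle mice 1 to 4. Dendritic and Langerhans cell genes summed to 210.4, 479, 1122 and 1849 TPM in inhibitor mice 1 to 4, against 144, 206, 1210.0 and 1854 TPM in vehicle mice 1 to 4. Most of each sum was the class II gene H2-Ab1, which macrophages also express. It had 140.7, 419.9, 1046 and 1767 TPM in inhibitor mice 1 to 4, against 104.2, 147.9, 1126 and 1754 TPM in vehicle mice 1 to 4. The sums therefore do not single out dendritic or Langerhans cells. Mast cell genes summed to 79.4, 179, 444 and 637 TPM in inhibitor mice 1 to 4, against 72.1, 171, 467 and 571 TPM in vehicle mice 1 to 4. B cell genes were near 0, at 0.410 to 2.39 TPM in sum. The part of these cells in the values of the 36 genes was not tested.

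**Figure D3:**
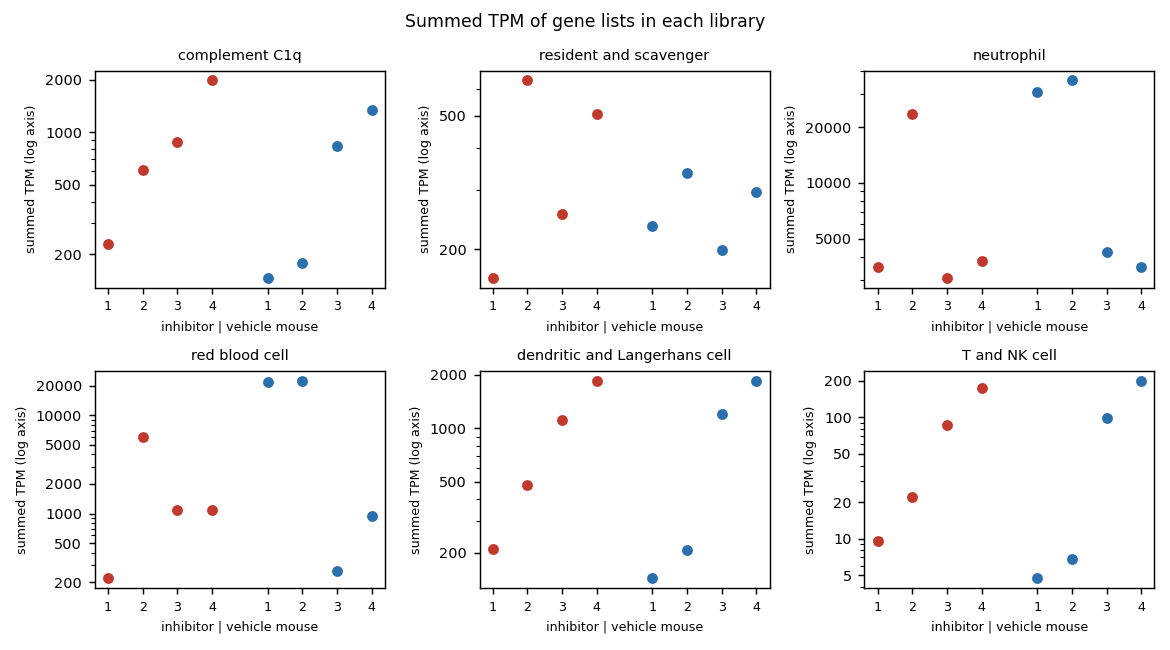
Summed TPM (log axis) of 6 gene lists in each library, inhibitor mice in red at left and vehicle mice in blue at right. Neutrophil and red blood cell sums peak in vehicle mice 1 and 2, where the sums of C1q, dendritic cell and T cell genes are low. Most of the dendritic cell sum is H2-Ab1, which macrophages also express, and most of the neutrophil sum is S100a8 and S100a9.

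Genes of general macrophage identity had 6 higher and 3 lower estimates. Adgre1, which encodes F4/80, the classical surface marker of mouse macrophages, had 5.48, 26.3, 41.4 and 103 CPM in inhibitor mice 1 to 4, against 10.1, 8.95, 37.8 and 68.0 CPM in vehicle mice 1 to 4. The ears of vehicle mice 1 and 2 and of inhibitor mouse 1 were low. The vehicle ears lay within the range of the inhibitor ears, with inhibitor mouse 4 above them all and inhibitor mouse 1 below. Its log2 fold change was 0.49 (SE 0.90), and without inhibitor mouse 4 it was -0.36. Csf1r, the receptor for the growth factors CSF-1 and IL-34 on which macrophages depend, had 45.5, 149.9, 146 and 277 CPM in inhibitor mice 1 to 4, against 90.7, 103, 139.7 and 212 CPM in vehicle mice 1 to 4. It spread less than Adgre1, with a highest value 6.09 times the lowest, against 18.8 times for Adgre1, and its log2 fold change was 0.18 (SE 0.50), or -0.26 without inhibitor mouse 4. Cd68, a glycoprotein of the macrophage lysosome, had 34.5, 101, 66.6 and 139.8 CPM in inhibitor mice 1 to 4, against 76.7, 117, 64.9 and 92.2 CPM in vehicle mice 1 to 4. Its group means were nearly level, with a log2 fold change of -0.038 (SE 0.40), and a total-count scaling gave 0.080. Of the 50-base windows in the Csf1r transcripts of GENCODE M21, 16.4% also occur in the overlapping gene Hmgxb3, and its level is uncertain to that extent.

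Aif1, Ms4a6c and Ms4a7 followed Adgre1 across libraries. Aif1, the calcium-binding protein IBA1 of macrophages, had 20.5, 41.6, 57.5 and 106 CPM in inhibitor mice 1 to 4, against 10.1, 6.34, 48.7 and 64.2 CPM in vehicle mice 1 to 4. Ms4a6c, a membrane protein with 4 spans, had 41.9, 97.2, 148 and 296 CPM in inhibitor mice 1 to 4, against 30.2, 17.0, 119.8 and 166 CPM in vehicle mice 1 to 4. In both, vehicle mice 1 and 2 were the lowest of all 8 ears and inhibitor mouse 4 the highest, and the log2 fold changes were 0.80 (SE 0.78) for Aif1 and 0.81 (SE 0.80) for Ms4a6c. For Ms4a6c 56.9% of the windows also occur in other genes, mostly an antisense transcript, and the strand used in counting is not given in the sources used here. Ms4a7, a related protein, had 4.25, 21.3, 16.4 and 52.9 CPM with the inhibitor, against 4.51, 5.85, 15.3 and 35.9 CPM with vehicle. It was lowest in inhibitor mouse 1 and vehicle mice 1 and 2, and the log2 fold change was 0.62 (SE 0.84), or -0.14 without inhibitor mouse 4. Lyz2, lysozyme of monocytes, macrophages and neutrophils, was the most abundant identity gene per length over the 8 libraries at 1057 ± 967 TPM with the inhibitor and 771 ± 527 TPM with vehicle (SD, n = 4 each), though Cd14 was above it in the vehicle mean, at 1133 ± 1165 TPM. It had 119.6, 381, 642 and 1424 CPM in inhibitor mice 1 to 4, against 345, 216, 543 and 843 CPM in vehicle mice 1 to 4. The ear of inhibitor mouse 4 was highest and that of inhibitor mouse 1 lowest, so both ends of the range came from 1 group, and the log2 fold change was 0.40 (SE 0.70). Lyz1 shares 15.4% of the Lyz2 windows. Mertk, a receptor for the uptake of dying cells, had 10.5, 16.5, 19.2 and 32.9 CPM with the inhibitor, against 17.5, 20.8, 23.2 and 37.4 CPM with vehicle, and a log2 fold change of -0.32 (SE 0.37).

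Cd14, the co-receptor for bacterial lipopolysaccharide, parted from the other identity genes. It had 44.9, 1472, 83.4 and 142 CPM in inhibitor mice 1 to 4, against 2539, 2934, 57.0 and 177 CPM in vehicle mice 1 to 4. Vehicle mice 1 and 2 and inhibitor mouse 2 were high and the other 5 ears low. The high ears also had the highest sums of neutrophil markers and of red blood cell genes. Neutrophils make Cd14 too, and their part in its level was not tested. The log2 fold change was -1.71 (SE 1.45). It was -4.01 without inhibitor mouse 2, -1.84 with mice 1 and 2 of both groups alone, -0.079 with mice 3 and 4 alone and 0.025 with limma-voom quality weights. Relative to Csf1r, the TPM of Cd14 was 2.34, 23.3, 1.36 and 1.22 in inhibitor mice 1 to 4, against 66.5, 67.4, 0.969 and 1.98 in vehicle mice 1 to 4.

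Markers of monocytes arriving from blood did not vary together. Ccr2, the receptor for the monocyte attractant CCL2, had 31.2, 68.3, 147 and 239 CPM in inhibitor mice 1 to 4, against 22.2, 14.5, 109.9 and 180.1 CPM in vehicle mice 1 to 4. It was lowest in vehicle mice 1 and 2, and its log2 fold change was 0.57 (SE 0.88), or 0.0091 without inhibitor mouse 4. Ly6c2, a surface protein of classical monocytes, had 14.9, 67.6, 78.6 and 155 CPM in inhibitor mice 1 to 4, against 116, 96.4, 64.0 and 69.9 CPM in vehicle mice 1 to 4. Unlike Ccr2, it was higher in vehicle mice 1 and 2 than in vehicle mice 3 and 4, and its log2 fold change was -0.13 (SE 0.57). Of its windows 30.8% occur also in Ly6c1, which is expressed by endothelium too and had 435, 291, 351 and 369 CPM with the inhibitor, against 193, 305, 349 and 307 CPM with vehicle. Chil3, the chitinase-like protein Ym1 of monocytes, some macrophages and neutrophils, had 49.7, 67.0, 95.6 and 98.4 CPM in inhibitor mice 1 to 4, against 217, 66.5, 50.1 and 40.9 CPM in vehicle mice 1 to 4. Vehicle mouse 1 stood apart, and the log2 fold change was -0.27 (SE 0.54). It was -1.28 with mice 1 and 2 alone and 1.07 with mice 3 and 4 alone, and 0.73 with limma-voom quality weights. Chil4 and other genes share 28.5% of the Chil3 windows.

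The 3 genes of complement C1q, which starts the classical complement cascade and in tissue comes largely from macrophages, all had higher estimates. C1qa had 30.0, 135, 181 and 389 CPM in inhibitor mice 1 to 4, against 21.9, 33.0, 161 and 282 CPM in vehicle mice 1 to 4. C1qb had 73.5, 190.3, 216 and 476 CPM in inhibitor mice 1 to 4, against 57.3, 71.4, 195 and 313 CPM in vehicle mice 1 to 4. C1qc had 38.2, 110, 144 and 339 CPM in inhibitor mice 1 to 4, against 33.8, 51.2, 142 and 210.4 CPM in vehicle mice 1 to 4. In all 3, inhibitor mouse 4 was highest, inhibitor mouse 1 lay near vehicle mice 1 and 2, and these 3 ears were the lowest. The log2 fold changes were 0.56 (SE 0.93), 0.59 (SE 0.68) and 0.53 (SE 0.74) in that order. Without inhibitor mouse 4 the estimates were -0.11 for C1qa, 0.0056 for C1qb and -0.17 for C1qc. Among mice 1 and 2 the estimates were 1.60, 1.04 and 0.81, and among mice 3 and 4 0.33, 0.42 and 0.42. The chains assemble into 1 protein, yet C1qa relative to C1qb in TPM was 0.416, 0.724, 0.858 and 0.834 in inhibitor mice 1 to 4, against 0.390, 0.472, 0.842 and 0.921 in vehicle mice 1 to 4. It was lowest in inhibitor mouse 1 and vehicle mice 1 and 2. C1qc relative to C1qb kept a narrower range, at 0.544, 0.604, 0.698 and 0.745 in inhibitor mice 1 to 4, against 0.616, 0.750, 0.765 and 0.704 in vehicle mice 1 to 4.

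Receptors for antibody and their signalling chains divided into both patterns. Fcgr2b, the inhibitory IgG receptor, had 59.2, 203, 192 and 387 CPM in inhibitor mice 1 to 4, against 68.3, 107, 179.6 and 251 CPM in vehicle mice 1 to 4. Fcgr3, an activating receptor of macrophages, neutrophils and natural killer cells, had 58.0, 275, 163 and 305 CPM in inhibitor mice 1 to 4, against 274, 394, 125 and 199 CPM in vehicle mice 1 to 4. In CPM, Fcgr2b was lowest in inhibitor mouse 1 and vehicle mice 1 and 2, whereas Fcgr3 was highest in vehicle mouse 2. In TPM, Fcgr3 was highest in inhibitor mouse 4, at 399 TPM against 359 TPM in vehicle mouse 2. The log2 fold changes were 0.47 (SE 0.57) for Fcgr2b and -0.31 (SE 0.53) for Fcgr3. The TPM ratio of Fcgr3 to Fcgr2b was 1.03, 1.43, 0.889 and 0.826 in inhibitor mice 1 to 4, against 4.18, 3.85, 0.730 and 0.834 in vehicle mice 1 to 4. Vehicle mice 1 and 2 lay above all other ears, and the remaining 6 held 0.730 to 1.43. Fcgr2b and Fcgr3 share windows with each other, 4.48% of those of Fcgr2b and 10.2% of those of Fcgr3.

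Fcgr1, the high-affinity IgG receptor CD64, was among the least variable of these genes at 43.5, 83.8, 56.0 and 107 CPM in inhibitor mice 1 to 4, against 73.5, 53.1, 49.4 and 62.9 CPM in vehicle mice 1 to 4. Its highest value was 2.46 times its lowest, and the log2 fold change was 0.28 (SE 0.28). Fcgr4, another activating receptor, had 21.7, 59.3, 61.6 and 108 CPM in inhibitor mice 1 to 4, against 46.9, 83.2, 39.9 and 62.7 CPM in vehicle mice 1 to 4. The vehicle ears lay within the range of the inhibitor ears, and the log2 fold change was 0.11 (SE 0.44). Tyrobp, the adaptor DAP12, had 46.8, 313, 131 and 265 CPM in inhibitor mice 1 to 4, against 292, 356, 104 and 181 CPM in vehicle mice 1 to 4. Fcer1g, the gamma chain shared by Fc receptors of macrophages, mast cells and other cells, had 149.9, 580.4, 291 and 519 CPM in inhibitor mice 1 to 4, against 574, 610, 271 and 404 CPM in vehicle mice 1 to 4. In CPM, both adaptors were highest in inhibitor mouse 2 and vehicle mice 1 and 2, and lowest in inhibitor mouse 1. That order depended on the scale, since in TPM inhibitor mouse 4 was above vehicle mice 1 and 2 for both adaptors. It had 855.6 TPM of Tyrobp, against 747.2 and 805.3 TPM in vehicle mice 1 and 2. For Fcer1g it had 1450 TPM, against 1267 and 1191 TPM in those ears. Their log2 fold changes were -0.31 (SE 0.59) for Tyrobp and -0.27 (SE 0.44) for Fcer1g. The sign turned among mice 3 and 4, at 0.45 and 0.24.

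The 8 scavenger and resident-macrophage genes all had a higher estimate with the inhibitor (54.5% of all genes), with a median log2 fold change of 0.43. This grouping was made with earlier results of these data known. With mice 1 and 2 alone the median was 0.25, and Folr2 (-0.81) and Msr1 (-0.062) had lower estimates. Mice 3 and 4 alone gave a median of 0.62. Cd163, the scavenger receptor for haemoglobin bound to haptoglobin, had 9.94, 24.4, 15.5 and 30.8 CPM in inhibitor mice 1 to 4, against 6.26, 8.20, 14.9 and 15.3 CPM in vehicle mice 1 to 4. Inhibitor mice 2, 3 and 4 were above every vehicle ear, mouse 3 narrowly, and inhibitor mouse 1 was below vehicle mice 3 and 4. Its log2 fold change of 0.85 (SE 0.42) had the smallest unadjusted p of the 36 genes, 0.0768. Mrc1, the mannose receptor CD206 of dermal macrophages and lymphatic endothelium, had 82.6, 219, 134 and 271 CPM in inhibitor mice 1 to 4, against 71.4, 91.6, 109.9 and 173 CPM in vehicle mice 1 to 4. Inhibitor mice 2 and 4 were above every vehicle ear, and the log2 fold change was 0.66 (SE 0.41). For both genes the sign was the same in all 19 alternatives and left-out fits, from 0.57 to 1.08 with a library left out for Cd163 and from 0.38 to 0.96 for Mrc1. Msr1, scavenger receptor A, had 41.4, 96.6, 62.8 and 127 CPM in inhibitor mice 1 to 4, against 77.8, 66.7, 43.8 and 64.5 CPM in vehicle mice 1 to 4. Here too inhibitor mice 2 and 4 were the highest ears, and the log2 fold change was 0.37 (SE 0.34).

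The other scavenger and resident genes were less even. F13a1, the A chain of clotting factor XIII made by dermal macrophages, had 15.8, 103, 88.7 and 175 CPM in inhibitor mice 1 to 4, against 57.6, 50.8, 60.9 and 107 CPM in vehicle mice 1 to 4. It was lowest in inhibitor mouse 1 and highest in inhibitor mouse 4, and its log2 fold change was 0.47 (SE 0.60), or 0.0027 without inhibitor mouse 4. Pf4, a chemokine of platelets and of some resident macrophages, had 31.9, 172, 35.1 and 65.7 CPM in inhibitor mice 1 to 4, against 57.3, 111, 26.6 and 37.7 CPM in vehicle mice 1 to 4. It was high in inhibitor mouse 2 and vehicle mouse 2, and the log2 fold change was 0.39 (SE 0.64), or -0.42 without inhibitor mouse 2. Of the other 5 platelet genes, Ppbp, a platelet chemokine, was highest in the same ears, with 4.32, 31.7, 1.28 and 1.38 CPM with the inhibitor, against 19.4, 28.9, 0.461 and 1.12 CPM with vehicle. Gp9 and Treml1, at most 3.51 CPM, were also highest in mouse 2 of each group, while Gp1ba and the integrin chain Itga2b varied less, Itga2b with 17.3, 17.2, 13.4 and 15.6 CPM with the inhibitor, against 24.0, 22.2, 13.6 and 12.9 CPM with vehicle. The part of platelets in Pf4 was not tested. Stab1, stabilin of macrophages and some endothelium, came to 0.28 (SE 0.33) on the log2 scale, with 4.53 to 12.9 TPM. Folr2, folate receptor beta of resident macrophages, had 0.15 (SE 0.60) and 5.23 to 42.6 TPM, and 46.7% of its windows lie in an antisense transcript. Marco, a bacterial scavenger receptor, was rarest, with 0, 0.373, 5.26 and 4.66 CPM in inhibitor mice 1 to 4, against 0.269, 0, 1.79 and 3.41 CPM in vehicle mice 1 to 4. No read was counted in inhibitor mouse 1 or vehicle mouse 2, which allows up to 0.206 CPM in inhibitor mouse 1 and 0.207 CPM in vehicle mouse 2 at 3 reads, for counting error only. Its log2 fold change was 0.90 (SE 1.42).

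Set against Csf1r within each library, 3 of the other 35 genes lay apart between the groups, all higher with the inhibitor. Across all genes tested 0.185% lay apart on this scale, and 0.0729% were wholly higher with the inhibitor. Mrc1 relative to Csf1r, as a TPM ratio, was 1.32, 1.06, 0.667 and 0.709 in inhibitor mice 1 to 4, against 0.572, 0.644, 0.572 and 0.592 in vehicle mice 1 to 4. Cd163 relative to Csf1r was 0.200, 0.151, 0.0988 and 0.102 in inhibitor mice 1 to 4, against 0.0596, 0.0686, 0.0976 and 0.0650 in vehicle mice 1 to 4. Fcgr2b relative to Csf1r was 3.65, 3.78, 3.68 and 3.92 in inhibitor mice 1 to 4, against 2.12, 2.91, 3.61 and 3.31 in vehicle mice 1 to 4. The gaps for Cd163 and Fcgr2b were narrow, with vehicle mouse 3 just below the inhibitor ears. This scale was chosen after the values were seen, and the choice of Csf1r mattered. Relative to Mertk, Mrc1 and Cd163 lay apart, 2 of 35 beside 2.68% of all genes. Relative to Cd68, Mrc1 alone did, beside 0.166% of all genes. Relative to Adgre1, Lyz2, Cd14, Aif1, Ms4a7 or Ms4a6c 0 of 35 did, beside 0.00662% (Cd14) to 1.77% (Aif1) of all genes.

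**Figure D4:**
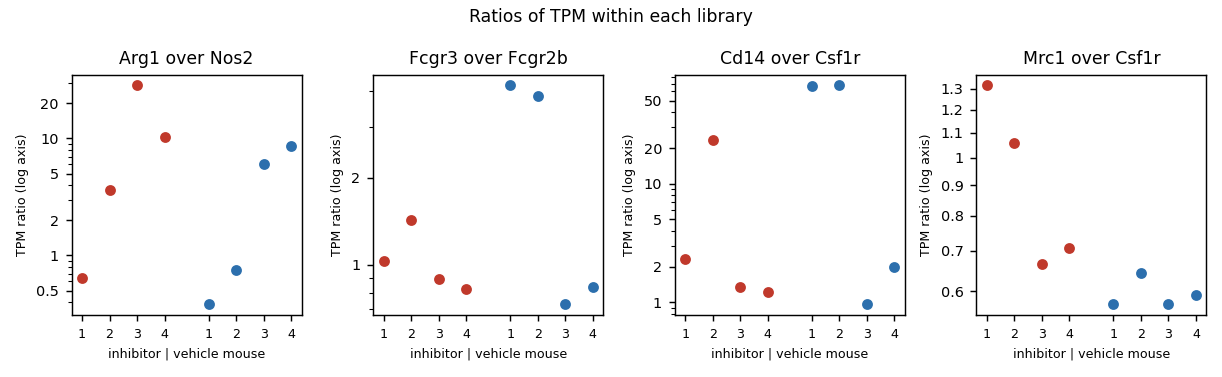
TPM ratios within each library (log axes), inhibitor mice in red at left and vehicle mice in blue at right. Arg1 over Nos2 is below 1 in inhibitor mouse 1 and vehicle mice 1 and 2, Fcgr3 over Fcgr2b and Cd14 over Csf1r peak in vehicle mice 1 and 2, and Mrc1 over Csf1r is at least 0.667 in inhibitor ears and at most 0.644 in vehicle ears.

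Genes of lipid-handling and phagocytic macrophages had 2 higher and 3 lower estimates. Spp1, osteopontin, a secreted phosphoprotein of macrophages and also of bone and epithelia, was the most abundant of the 36 per length over the 8 libraries at 1733 ± 2851 TPM with the inhibitor and 3699 ± 3984 TPM with vehicle (SD, n = 4 each). It had 371, 5704, 147 and 239 CPM in inhibitor mice 1 to 4, against 7629, 7989, 152 and 255 CPM in vehicle mice 1 to 4. The 3 high ears were those high in Cd14 and in neutrophil markers, and the highest value was 54.5 times the lowest. Its log2 fold change was -1.31 (SE 1.56), -1.35 among mice 1 and 2, -0.10 among mice 3 and 4 and -4.02 without inhibitor mouse 2. Gm42793, an annotated transcript with no known role, shares 11.6% of its windows. Trem2, a lipid-sensing receptor that signals through Tyrobp, had 3.77, 17.0, 10.1 and 23.0 CPM in inhibitor mice 1 to 4, against 5.58, 2.41, 10.7 and 17.1 CPM in vehicle mice 1 to 4. It was low in vehicle mice 1 and 2 and inhibitor mouse 1, did not follow its adaptor, and had a log2 fold change of 0.58 (SE 0.67).

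Apoe, Lgals3 and Gpnmb are made by skin cells other than macrophages as well, and with Fcgr1 they had the narrowest spans across the 8 ears. Apoe, apolipoprotein E of macrophages and sebaceous glands, had 1732, 1753, 2079 and 1901 CPM in inhibitor mice 1 to 4, against 1112, 1326, 2302 and 2602 CPM in vehicle mice 1 to 4. The inhibitor ears lay within the range of the vehicle ears, and the log2 fold change was 0.024 (SE 0.28). Lgals3, galectin-3 of macrophages and keratinocytes, had 685, 1093, 822 and 839 CPM in inhibitor mice 1 to 4, against 1357, 1727, 831 and 857 CPM in vehicle mice 1 to 4. Vehicle mice 1 and 2 were highest, and the log2 fold change was -0.47 (SE 0.28), below 0 in all alternatives and left-out fits. Gpnmb, a glycoprotein of macrophages and melanocytes, had 23.9, 32.9, 44.3 and 57.9 CPM with the inhibitor, against 36.9, 28.9, 47.1 and 68.2 CPM with vehicle, with a log2 fold change of -0.19 (SE 0.34). The sums of sebaceous genes were 1503, 1143, 1367 and 956 TPM in inhibitor mice 1 to 4, against 455, 447, 1503 and 1181 TPM in vehicle mice 1 to 4, and those of melanocyte genes 21.4, 19.3, 38.2 and 33.5 TPM in inhibitor mice 1 to 4, against 36.8, 39.7, 46.0 and 54.5 TPM in vehicle mice 1 to 4. Their part in Apoe and Gpnmb was not tested.

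Arg1 and Nos2 encode arginase 1 and inducible nitric oxide synthase, which compete for arginine and are read as poles of macrophage activation in mice. Nos2 had 32.3, 157, 4.14 and 9.22 CPM in inhibitor mice 1 to 4, against 227, 343, 6.00 and 6.42 CPM in vehicle mice 1 to 4. It was high in vehicle mice 1 and 2 and inhibitor mouse 2, and the highest value was 82.8 times the lowest, the widest span of the 35 genes with reads in every library. The log2 fold change was -1.52 (SE 1.5), with -1.58 among mice 1 and 2, 0.076 among mice 3 and 4 and -3.29 without inhibitor mouse 2. Arg1, which keratinocytes can also express, had 7.74, 212, 44.5 and 35.6 CPM in inhibitor mice 1 to 4, against 31.8, 92.2, 13.5 and 20.8 CPM in vehicle mice 1 to 4. Inhibitor mouse 2 was highest and inhibitor mouse 1 lowest, and the log2 fold change was 0.92 (SE 0.96), or -0.46 without inhibitor mouse 2. The TPM ratio of Arg1 to Nos2 was 0.647, 3.64, 28.3 and 10.2 in inhibitor mice 1 to 4, against 0.385, 0.748, 6.03 and 8.56 in vehicle mice 1 to 4. Each inhibitor ear had a higher ratio than the vehicle ear of the same number, but the groups overlapped. The labels do not pair mice by number, and how often other ratios do the same was not counted. Both genes were at their highest in ears with mouse number 2.

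**Figure D5:**
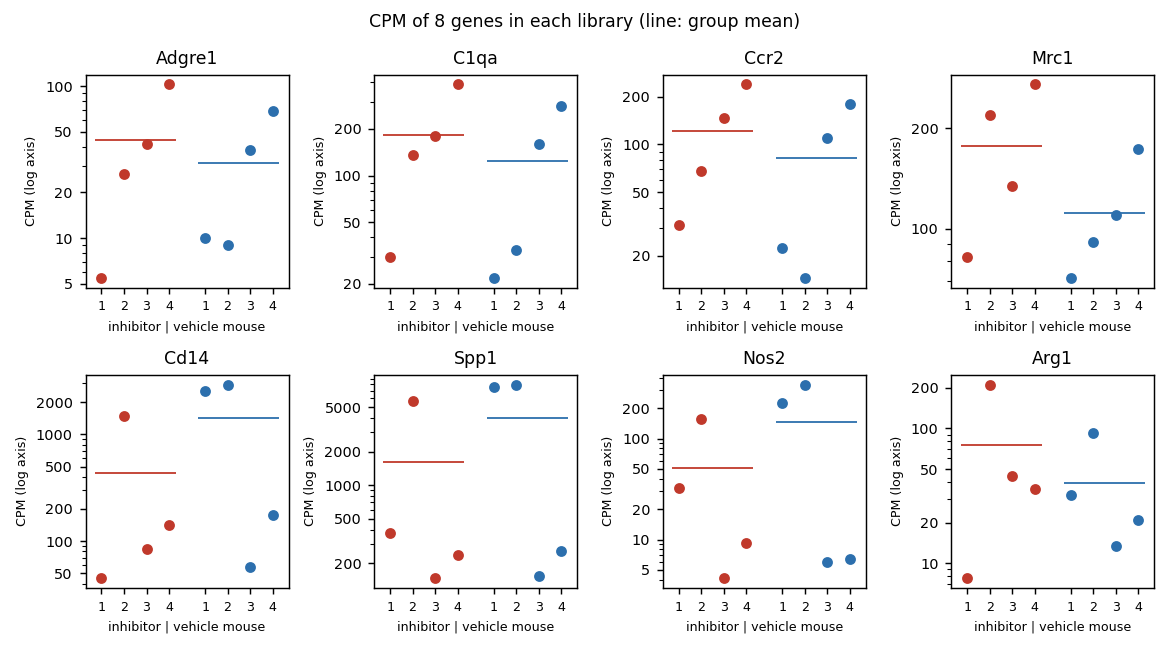
CPM (log axes) of 8 genes in each library, inhibitor mice in red at left and vehicle mice in blue at right, with lines at the group means. Adgre1, C1qa and Ccr2 are low in vehicle mice 1 and 2, where Cd14, Spp1 and Nos2 are high together with inhibitor mouse 2.

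Lists of related genes did not pass either. Of 16 growth factor and lineage genes, which include Csf1r, 7 had a higher and 9 a lower estimate, 0 passed, and the median log2 fold change was -0.03. Cebpb, a transcription factor of inflammatory myeloid cells and of keratinocytes, had 69.1, 156, 47.9 and 56.4 CPM with the inhibitor, against 249, 391, 63.1 and 64.1 CPM with vehicle, with a log2 fold change of -1.22 (SE 0.67). Klf4, a factor of monocytes and of the epidermal barrier, had -0.46 (SE 0.25). Of 16 type 1 activation genes, including Nos2, 1 was higher and 15 were lower, 0 passed and the median was -0.82. Mice 1 and 2 alone gave a median of -1.18, mice 3 and 4 alone 0.23. Ptgs2, cyclooxygenase 2, had 60.5, 933, 18.7 and 29.1 CPM with the inhibitor, against 2386, 4720, 10.9 and 28.8 CPM with vehicle, and a log2 fold change of -2.78 (SE 1.94). Cxcl10, an interferon-induced chemokine, had -0.48 (SE 0.31).

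Of 15 type 2 activation genes tested, including Arg1, Chil3 and Mrc1, 9 were higher and 6 lower, 0 passed and the median log2 fold change was 0.09. Il4ra, the interleukin-4 receptor chain, had -0.15 (SE 0.43), and Socs1, a feedback inhibitor of cytokine signalling, had -0.38 (SE 0.22). Of 42 other macrophage genes tested, 21 were higher and 21 lower, 0 passed and the median was 0.01. Lgmn, a lysosomal protease, had 171, 261, 213 and 403 CPM with the inhibitor, against 122, 186, 192 and 288 CPM with vehicle, and a log2 fold change of 0.41 (SE 0.33). Itgax, the integrin CD11c of dendritic cells and macrophages, had -0.66 (SE 0.48), and Fabp5, a fatty acid carrier also abundant in keratinocytes, had 0.05 (SE 0.19).

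Promoters were compared for genes that split the vehicle ears in either direction. C1qb, C1qc and Ccr2 were lower in vehicle mice 1 and 2 than in vehicle mice 3 and 4, and Spp1 and Fcgr3 were higher. Fcgr3 was the less clear case, since inhibitor mouse 4 (305 CPM) was above vehicle mouse 1 (274 CPM). RefSeq promoters on GRCm38.p6, running from 250 bases before a start site to 50 after it, were found for 28 of the 36 genes. The motifs searched on both strands were GAGGAAGT for PU.1, the master factor of the macrophage lineage, TGANTCA for AP-1, TTNCNNAA for C/EBP factors and the NF-kappaB consensus. Capitals mark matches, and in Fcgr3 the NF-kappaB match and a C/EBP match overlap.
C1qb (chr4:136886151-136886450, minus strand): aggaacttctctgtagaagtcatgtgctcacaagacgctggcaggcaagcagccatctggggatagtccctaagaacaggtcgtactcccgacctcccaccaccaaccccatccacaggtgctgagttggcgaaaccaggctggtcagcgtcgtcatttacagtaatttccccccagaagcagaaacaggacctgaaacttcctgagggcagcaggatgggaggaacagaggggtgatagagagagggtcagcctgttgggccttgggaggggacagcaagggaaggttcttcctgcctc
C1qc (chr4:136892865-136893164, minus strand): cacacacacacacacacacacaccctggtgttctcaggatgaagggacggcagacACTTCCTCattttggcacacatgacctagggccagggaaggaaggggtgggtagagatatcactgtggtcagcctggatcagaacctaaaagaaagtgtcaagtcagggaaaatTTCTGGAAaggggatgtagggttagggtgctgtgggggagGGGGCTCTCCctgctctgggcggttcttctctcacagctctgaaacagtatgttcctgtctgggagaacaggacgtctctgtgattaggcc
Ccr2 (chr9:124101933-124102232, plus strand): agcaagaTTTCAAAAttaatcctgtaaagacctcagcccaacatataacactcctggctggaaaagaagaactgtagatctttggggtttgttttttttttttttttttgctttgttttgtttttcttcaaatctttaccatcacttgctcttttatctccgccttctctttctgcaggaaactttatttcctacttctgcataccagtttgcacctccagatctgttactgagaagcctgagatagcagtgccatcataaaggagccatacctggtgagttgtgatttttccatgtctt
Spp1 (chr5:104434861-104435160, plus strand): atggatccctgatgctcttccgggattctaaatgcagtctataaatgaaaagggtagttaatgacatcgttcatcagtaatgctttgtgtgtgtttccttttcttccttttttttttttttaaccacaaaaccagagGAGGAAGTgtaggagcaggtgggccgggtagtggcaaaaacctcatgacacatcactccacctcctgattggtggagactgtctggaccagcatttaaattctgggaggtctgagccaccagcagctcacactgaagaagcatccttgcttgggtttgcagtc
Fcgr3 (chr1:171059354-171059653, minus strand): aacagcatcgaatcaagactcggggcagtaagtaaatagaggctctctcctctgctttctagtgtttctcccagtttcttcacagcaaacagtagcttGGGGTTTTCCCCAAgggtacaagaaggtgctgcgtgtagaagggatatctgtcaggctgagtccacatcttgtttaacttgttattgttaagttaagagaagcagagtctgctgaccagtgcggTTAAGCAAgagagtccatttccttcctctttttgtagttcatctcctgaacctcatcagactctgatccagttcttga

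The PU.1 word stood in C1qc at -195 and in Spp1 at -113 from the start site. A second RefSeq promoter of Spp1 (chr5:104435942-104436241) held no PU.1 word and matched C/EBP at -156 and -15. A second promoter of Fcgr3 (chr1:171059345-171059644) held the same matches as the first. With each promoter counted, the PU.1 word was present in 19.4% of the 36 promoters of these genes, and in 3.2% of the 32851 promoters in all. Its 7 promoters belong to 6 of the 28 genes, C1qc, F13a1, Fcgr4, Ly6c2, Pf4 and Spp1. AP-1 matched in 13.9% against 7.81%, C/EBP in 66.7% against 40.7% and NF-kappaB in 13.9% against 8.46%. C1qb held no match to the 4 motifs in this window, and Ccr2 held 1 C/EBP match.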

How the data were processed

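RNA from the left ears of 8 mice was purified by its poly(A) tail and read as single-end 50-base reads on DNBSEQ, per the labels' protocols. HISAT and the GRCm39 build are named in the submitters' processing notes, with no HISAT version. The sources used here do not give the counting tool, the annotation or the strand setting. Per gene and library, the authors deposited expected counts that need not be whole, and TPM, a level per transcript length. Another 14 columns of values were not used.

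The deposited expected counts were rounded to whole numbers, since 33.7% to 35.3% of the values per library were not whole. Genes were kept by filterByExpr of edgeR 4.0.16, which left 15096 of 19126, and scaled by TMM (factors 0.815 to 1.08). The inhibitor group was compared with the vehicle group by edgeR's quasi-likelihood test in R 4.3.3, with p-values adjusted by Benjamini-Hochberg over all genes tested and a threshold of 0.05. The biological coefficient of variation was 41% and the median SE of a log2 fold change 0.259. Fold changes, also of lists, come from this fit unless another fit is named. Levels between genes were compared in the deposited TPM values, except that the largest gene of a related list was picked by mean CPM.

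Libraries held 13863180 to 18512232 counts and 17036 to 17635 genes with at least 1 read. No pair within a group was alike within sampling noise, so each counted as 1 replicate. The labels do not say what mice of the same number share. Deviations from the group means correlated at 0.397, 0.71, 0.673 and 0.682 between same-numbered libraries, so the numbers were treated as pairs in an alternative fit, on the data's evidence and not the design's. Inhibitor mouse 1 and vehicle mouse 1 matched less well than inhibitor mouse 2 and vehicle mouse 1, at 0.554, and inhibitor mouse 3 matched vehicle mouse 4, at 0.685, slightly better than its own number.

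Tested on simulated counts for the 15096 genes, the fit recovered 2%, 10%, 74% and 92% of 50 genes each changed 1.5-, 2-, 4- and 8-fold, with 2 false calls. Spread in the simulation followed the trend over all genes, and libraries of a group were drawn independently. Alternatives were other scalings and filters, DESeq2 1.42.0, limma 3.58.1 (voom with quality weights, and trend on log2(TPM + 1) and log2(TPM + 0.1)), a block for mouse number, leaving out single libraries, and mice 1 and 2 or mice 3 and 4 alone. Shared sequence was counted as 50-base windows of GENCODE M21 transcripts that also occur in another gene.

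The members and gene lists were chosen with earlier results of these data known. Values are given for every library for the identity, monocyte, C1q, Fc receptor and polarisation genes, for the most abundant and smallest-p genes of the other roles, and for others where they help. From each related list the genes with the smallest p and the largest mean CPM are named, and from lists of other cells only those that bear on the members.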

Additional observations from a re-analysis of the deposited data

Results flagged for a closer look

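In 3 of the 72 groups of 4 values examined (36 genes in each group), 1 ear lay far from the other 3, judged by its gap to the nearest value over the range of the group against Dixon's critical value for 4 values. Chance flags about 1 group in 20, which these 3 of 72 do not exceed. Cd14 had 1472 CPM in inhibitor mouse 2, with a gap of 0.932 of the range. Spp1 had 5704 CPM in the same ear, with a gap of 0.96. Chil3 had 217 CPM in vehicle mouse 1, with a gap of 0.854. Cd14 and Spp1 in inhibitor mouse 2 stood below both vehicle mice 1 and 2. The same ear held 23494 TPM of neutrophil markers, against at most 3787 TPM in the other inhibitor ears. Of that sum S100a8 made 8629 TPM and S100a9 12760 TPM. Ly6g had 18.0 CPM there, against 57.3 and 52.2 CPM in vehicle mice 1 and 2, and 4.80, 1.07 and 1.23 CPM in inhibitor mice 1, 3 and 4. The part of neutrophils in the Cd14 and Spp1 values was not tested.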

How the results depend on the processing

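The 19 alternatives (edgeR, DESeq2 and limma) called 0 genes and 0 of the 36 members. At an unadjusted p under 0.05 they gave between 42 genes (without vehicle mouse 2) and 2515 (mice 1 and 2 only), with 293 in DESeq2 and 296 in limma-voom. With the replicate block 725 genes had an unadjusted p under 0.05, against 157 without it, 0 were called, and the block changed no call. The median log2 fold change of the 36 genes was 0.18 with the block, 0.02 with mice 1 and 2 only and 0.42 with mice 3 and 4 only, and ranged from -0.15 to 0.55 with 1 library left out. The number with a lower estimate, 12 in all, was 6 with mice 3 and 4 only and ranged from 8 to 21 with a library left out. 13 genes kept 1 sign throughout: Aif1, Ms4a6c, Mertk, Ccr2, C1qb, Fcgr1, Mrc1, Cd163, Stab1, F13a1, Marco, Trem2 and Lgals3. Of these, Ccr2 (0.0091), C1qb (0.0056), F13a1 (0.0027) and Fcgr1 (0.035) came near 0 without inhibitor mouse 4, as did Stab1 (0.051) without inhibitor mouse 2 and Mertk (-0.047) without vehicle mouse 4. The sign of a log2 fold change turned for Cd68 (0.08) and Ly6c2 (0.0077) with total counts, and for Chil3 (0.16) on both TPM scales. With limma-voom quality weights it turned for Adgre1 (-0.064), Csf1r (-0.069), Lyz2 (-0.0079), Cd14 (0.025), Ly6c2 (0.095), Chil3 (0.73), Fcgr3 (0.12), Tyrobp (0.11), Spp1 (0.13), Apoe (-0.19) and Nos2 (0.11). With the replicate block it turned for Chil3 (0.085), Fcgr4 (-0.035) and Folr2 (-0.077). Mice 1 and 2 alone turned Lyz2 (-0.16), Fcgr4 (-0.68), Folr2 (-0.81) and Msr1 (-0.062). Mice 3 and 4 alone turned Cd68 (0.36), Ly6c2 (0.77), Chil3 (1.07), Fcgr3 (0.50), Fcer1g (0.24), Tyrobp (0.45), Apoe (-0.32) and Nos2 (0.076). The causes were not tested. With 1 library left out, estimates ranged over both signs for Adgre1 (-0.36 to 1.22), Cd68 (-0.38 to 0.22), Csf1r (-0.26 to 0.49), Lyz2 (-0.35 to 0.80), Ms4a7 (-0.14 to 1.47), Ly6c2 (-0.68 to 0.21), Chil3 (-0.51 to 0.55), C1qa (-0.11 to 1.36), C1qc (-0.17 to 1.06), Fcgr2b (-0.00093 to 0.83), Fcgr3 (-0.58 to 0.00079), Fcgr4 (-0.29 to 0.39), Tyrobp (-0.69 to 0.019), Folr2 (-0.55 to 0.46), Pf4 (-0.42 to 0.90), Apoe (-0.17 to 0.24), Gpnmb (-0.42 to 0.084) and Arg1 (-0.46 to 1.75). Marco had too few reads for the fit with at least 1 CPM in every library and for mice 1 and 2 only. Other denominators in place of Csf1r were added after the data were seen. Against 3 genes apart between the groups for Csf1r (0.185% of all genes), 1 was apart for Cd68 (0.166%) and 2 for Mertk (2.68%). For Adgre1, Lyz2, Cd14, Aif1, Ms4a7 and Ms4a6c 0 were apart, beside 0.00662% (Cd14) to 1.77% (Aif1) of all genes.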
